A study of Mus musculus with 4 samples.

Results

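Cdh6, Cdh9, Cdh10, Cdh12 and Cdh18 are the cadherin genes that follow each other along the proximal part of mouse chromosome 15. They were chosen by name and place and also by their peak counts in the lists of the study, which were already known. Each was taken as its RefSeq gene span on mm10 with 50 kb on either side. These 5 genes, of 21887 protein-coding genes, held 1 of 16091 irradiated peaks and 23 of 9866 control peaks. The lists came from chromatin immunoprecipitation and sequencing (ChIP-seq) of H3K27me3, a histone H3 tail trimethylated on lysine 27, in the mouse glioblastoma line GL261. The groups were GL261 cells labelled IR, which the series title lets be read as irradiated, and GL261 cells labelled Con, the control; the labels give no dose, time or other treatment for either. Each group had 1 H3K27me3 library and 1 input library of DNA without immunoprecipitation, and the inputs were not analysed here. A single library for each group leaves no replicate error to set a difference against. No p-value between the groups was computed, and every interval covers counting error only.

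H3K27me3 is set by Polycomb repressive complex enzymes and lies over genes that are kept silent, most often as broad domains around CpG-rich starts of developmental genes. Classical cadherins are calcium-dependent adhesion proteins of the cell membrane, with an extracellular part of repeated cadherin domains and a cytoplasmic tail that binds catenins. Type I members such as E-cadherin and N-cadherin hold tissues together strongly, whereas type II members, to which all of these genes belong, are expressed in patterned subsets of cells, above all of neurons. In the nervous system they take part in sorting neurons and in matching partners at synapses.

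The peaks of both lists were short and rested on few reads. The median peak was 364 bp wide in the irradiated list and 357 bp in the control list, with a median of 11 and 10 reads at the summit, numbers recovered from its fold and p. At the lowest background a listed peak needed 8 reads in the irradiated and 7 in the control list, and a q (p adjusted over the genome) of at most 0.05 was reached by 15.2% of irradiated and 6.84% of control peaks. Hox genes, the best known Polycomb targets, had a peak within 50 kb in 20 of 39 cases in the irradiated list and 11 of 39 in the control list, and 0 of 10 housekeeping genes had one in either list. The Hox shares were 51.3% and 28.2%, against 30.8% and 23.5% of all protein-coding genes. Those with peaks were, in the irradiated list, the Hoxb and Hoxc genes and Hoxa13, and in the control list Hoxc and distal Hoxa genes, and the windows of neighbours share peaks. The Hox genes with the most peaks lie on chromosome 15: Hoxc13 had 10 irradiated and 7 control peaks, Hoxc4 had 13 and 3, and Hoxc5 and Hoxc6 had 8 and 2 each.

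An irradiated peak lay at 1 of the 5 cadherin genes, against 30.8% of all protein-coding genes, and control peaks lay at all 5, against 23.5% of all genes. Cdh12 held 1 irradiated and 8 control peaks. Cdh6 and Cdh18 each held 0 irradiated and 5 control peaks, Cdh9 held 0 and 3, and Cdh10 held 0 and 2. Every gene thus had more control than irradiated peaks, a pattern that 9.7% of all protein-coding genes showed, and 4 of the 5 had a control peak and no irradiated one, as 7.04% of all genes and 8.76% of chromosome 15 genes did. Of all genes with at least 2 control peaks, 14.7% had no irradiated one. Among the 1779 genes at least as long as Cdh9, 12.9% had a control peak and no irradiated one, 36.7% had an irradiated peak and 38.8% a control peak. The choice of the genes used these counts, so the shares are given beside them without a reading. The exact 95% Poisson interval was 0.0253 to 5.57 for the 1 irradiated peak and 14.6 to 34.5 for the 23 control peaks; for a single gene with 0 irradiated peaks it reached up to 3.69.

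**Figure D1:**
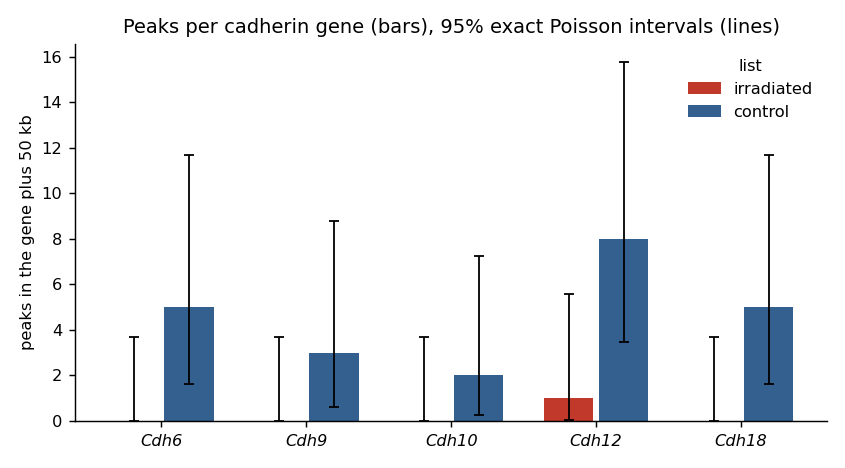
Number of peaks in each gene plus 50 kb (vertical axis) in the irradiated list (red, left) and the control list (blue, right); bars are counts of 1 library each and lines exact 95% Poisson intervals. The irradiated bar is at 0 for every gene but Cdh12, which has 1, and the control bars run between 2 and 8.

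Irradiated peaks made up 4.17% (exact 95% interval 0.105 to 21.1) of the peaks of both lists at these genes. In the whole lists the share was 62.0% (61.4 to 62.6), and on chromosome 15 it was 55.7% (54.4 to 57.1). Per length, the cadherin windows, 3.05 Mb in all, held 0.328 irradiated and 7.54 control peaks per Mb, against 27.9 and 22.2 on chromosome 15 and 5.93 and 3.63 over all placed chromosomes. The irradiated density of the cadherin genes was thus below that of their chromosome and of the genome, while the control density was below the chromosome's and above the genome's. Irradiated peaks covered 0.0111% of the windows and control peaks 0.285%, against 0.253% and 0.148% of the placed chromosomes.

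By control peaks per Mb of window the order of the genes was that of their places on the chromosome, but this order rests on the 50 kb flanks. Cdh6 had 20.2 control peaks per Mb (exact Poisson interval 6.55 to 47.1), Cdh9 had 13.1 (2.71 to 38.4), Cdh10 had 6.73 (0.815 to 24.3), Cdh12 had 6.40 (2.76 to 12.6) and Cdh18 had 4.86 (1.58 to 11.3). The intervals of all neighbours in this order overlapped, so the counts do not separate them. In the gene spans alone Cdh9 came first with 15.6 control peaks per Mb, then Cdh6 with 6.77, Cdh18 with 5.38, Cdh12 with 5.22 and Cdh10 with 5.07, and the control count of Cdh6 was 1 instead of 5. The only irradiated value above 0 was that of Cdh12, with 0.800 peaks per Mb (0.0203 to 4.46).

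Cdh6, also called K-cadherin and known from the developing kidney, the neural crest and subsets of retinal neurons, lies on the minus strand at 13028699 to 13176407 and is the first of the genes from the centromere. It had no irradiated peak, and 4 of its 5 control peaks lay beyond the 3′ end, on the side of its neighbour Drosha. The control peak inside the gene, at 13124764 to 13125082, had 13 reads and stood 3.57-fold over a background that was 1.67 times the lowest of its list. The strongest of the outer ones by p, at 12997343 to 12997953, was 3.97-fold over a background of 1.73 times the lowest, with 15 reads and a q of 0.0823. The next, at 13013041 to 13013373, was 4.23-fold over background with 12 reads. The remaining pair, at 12984651 to 12985045 and 12985200 to 12985483, had 8 and 9 reads, and both also lay within 50 kb of Drosha. When the window was widened to 100 kb, Cdh6 had 3 irradiated peaks, so its irradiated count of 0 depends on the 50 kb limit.

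Cdh9, which in the mouse hippocampus takes part in forming the synapses of mossy fibres, lies on the plus strand at 16728550 to 16857138. It had no irradiated peak and 3 control peaks. Those at 16761783 to 16762066 and 16767185 to 16767821, both within the gene, were each 3.43-fold over background with 9 reads. The third, at 16858344 to 16858629, lay 1.21 kb past the 3′ end with 10 reads and a fold of 3.75. All 3 stood over the lowest background of the list, and none had a q below 0.385. The nearest irradiated peak was 3801 to 3898 kb away from them.

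Cdh10, a cadherin of neurons in cortex and retina, lies on the plus strand at 18818869 to 19016206. It had no irradiated peak, and of its 2 control peaks the one inside the gene, at 18956006 to 18956409, was 3.43-fold over background with 9 reads. The other, 12.7 kb past the 3′ end at 19028919 to 19029247, was the strongest of all cadherin peaks, 4.53-fold over background with 13 reads and a q of 0.0236. It was the only one with a q of at most 0.05, and its background was 1.09 times the lowest. The nearest irradiated peaks were 1844 and 1771 kb away.

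Cdh12, a brain cadherin, has the longest span of the 5 genes, 1150 kb at 20448878 to 21598421 on the plus strand. Its irradiated peak, at 20799977 to 20800314, was 3.55-fold over a background of 1.42 times the lowest of the irradiated list, with 11 reads and a q of 0.149. In the control list 6 peaks lay in the gene, and 5 of these stood within 48.7 kb of each other, at 20757261 to 20805929. The irradiated peak fell inside this group, 6.80 kb from one control peak and 5.03 kb from the next, and overlapped neither. Within the group the folds were 4.17, 2.61, 3.75, 3.58 and 4.40 with 12, 11, 10, 14 and 12 reads, and the weakest, at 20764160 to 20764472, had a background 2.18 times the lowest. After the group came the longest interval without a control peak between Cdh6 and Cdh18, 827 kb from 20805929 to 21632798, and it held the RefSeq start of Cdh12 at 21111452. Acot10, an acyl-CoA thioesterase gene nested in the span of Cdh12, had no peak within 50 kb in either list.

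Cdh18, a cadherin of the central nervous system, has a span of 929 kb on the plus strand at 22548898 to 23477491. It had no irradiated peak, and all 5 control peaks lay inside the gene. The strongest, at 23336418 to 23336701, was 4.40-fold over the lowest background, with 12 reads and a q of 0.0823. Those at 23229751 to 23230067 and 23264782 to 23265118 had 10 and 8 reads and folds of 3.75 and 3.11. The remaining peaks, at 22720908 to 22721304 and 23411975 to 23412575, had 8 and 7 reads. Like the peak at 23264782 to 23265118, they had a q of 1. The nearest irradiated peaks were 485 to 837 kb away.

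**Figure D2:**
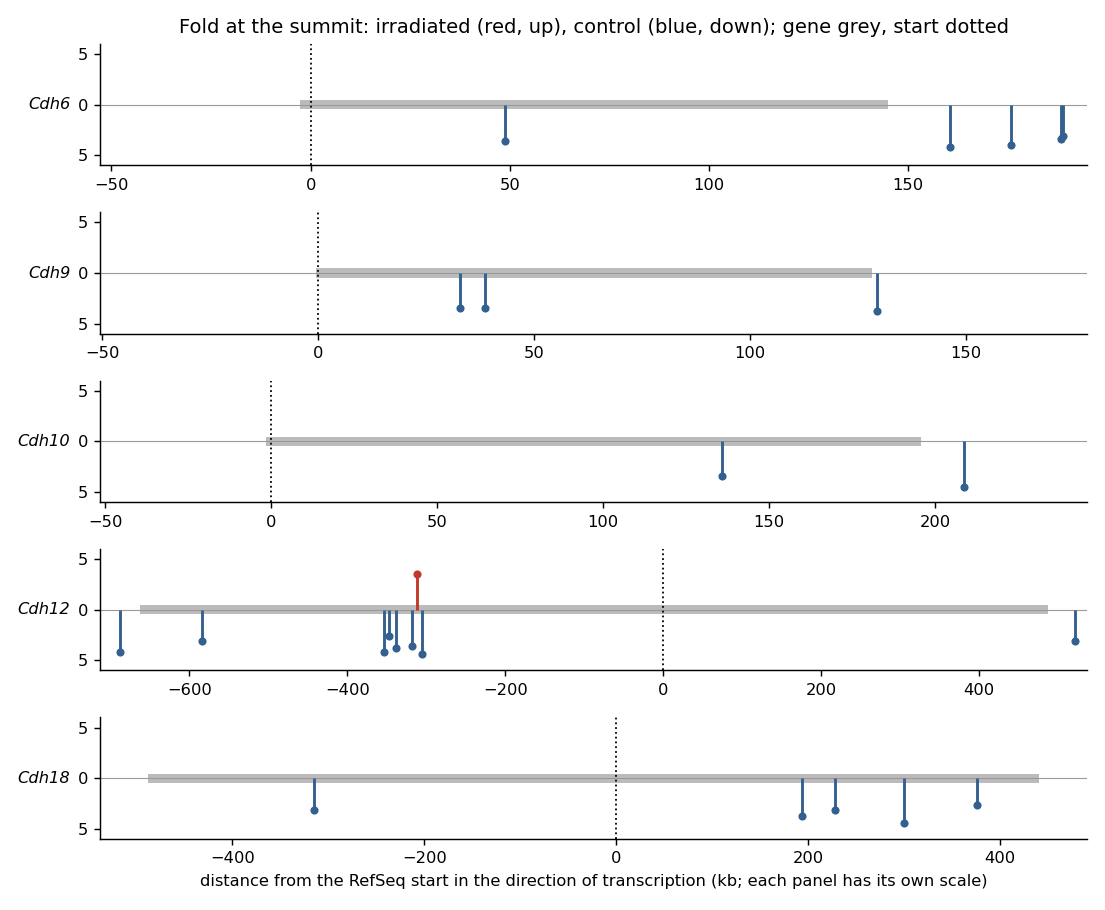
Summit position of every peak relative to the RefSeq start in kb along the direction of transcription (horizontal axis, own scale in each panel) against the fold at the summit (vertical axis), with irradiated peaks upward in red and control peaks downward in blue; the gene span is grey and the start dotted. The 1 irradiated peak sits in a group of 5 control peaks of Cdh12, and no peak stands at a start.

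No cadherin promoter met a peak in either list. From the window of 300 bp around the RefSeq start, the nearest irradiated peak was 213 kb away for Cdh6, 3768 kb for Cdh9, 1980 kb for Cdh10, 311 kb for Cdh12 and 861 kb for Cdh18. The nearest control peak was 48.5 kb away for Cdh6, 32.8 kb for Cdh9, 63.0 kb for Cdh10, 305 kb for Cdh12 and 193 kb for Cdh18. Promoters with a peak were few in both lists, with 80 (0.376%) in the irradiated and 41 (0.193%) in the control list, of 21263 windows of protein-coding genes. The 5 cadherin windows were poorer in CpG than the median window, which held 13. Cdh18 had 12 CpG and 60.3% GC, Cdh12 had 9 and 46.7%, Cdh6 had 8 and 53.0%, Cdh9 had 8 and 48.7%, and Cdh10 had 2 and 37.7%. For Cdh12 and Cdh18 the start lies far inside the annotated span, so most of their peaks on the 5′ side are still within the gene. The exception was 1 control peak of Cdh12, at 20423819 to 20424189, which lay 24.7 kb outside the span and had 12 reads.

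The promoters are shown because no peak was called on them, as on nearly all promoters, and because they shared stretches of sequence. The 250 bases before the RefSeq start (GRCm38.p6, the assembly of mm10) are given 5′ to 3′ on the strand of the gene. Capitals in Cdh6, at chr15:13173676-13173925 on the minus strand, Cdh9, at chr15:16728665-16728914, and Cdh18, at chr15:23036213-23036462, both on the plus strand, mark the 2 longest stretches shared between members; shorter ones, of 11 bases or fewer, are left in lower case. Capitals in Cdh10, at chr15:18820079-18820328 on the plus strand, mark its 2 CpG, the fewest of the 5.
Cdh6: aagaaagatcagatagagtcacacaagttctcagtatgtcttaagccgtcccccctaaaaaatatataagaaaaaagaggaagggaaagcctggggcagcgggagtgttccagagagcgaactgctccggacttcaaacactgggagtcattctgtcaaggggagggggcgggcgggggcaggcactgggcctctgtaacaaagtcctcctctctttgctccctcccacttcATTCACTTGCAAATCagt
Cdh9: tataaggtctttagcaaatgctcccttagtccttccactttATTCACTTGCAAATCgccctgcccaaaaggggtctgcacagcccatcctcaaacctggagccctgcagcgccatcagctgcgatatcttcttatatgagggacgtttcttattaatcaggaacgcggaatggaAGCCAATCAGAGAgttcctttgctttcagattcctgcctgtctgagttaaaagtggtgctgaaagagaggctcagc
Cdh10: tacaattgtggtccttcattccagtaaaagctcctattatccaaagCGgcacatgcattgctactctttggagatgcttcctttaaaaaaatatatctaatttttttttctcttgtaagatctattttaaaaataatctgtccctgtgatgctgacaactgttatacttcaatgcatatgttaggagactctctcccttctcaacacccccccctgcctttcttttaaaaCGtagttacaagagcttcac
Cdh18: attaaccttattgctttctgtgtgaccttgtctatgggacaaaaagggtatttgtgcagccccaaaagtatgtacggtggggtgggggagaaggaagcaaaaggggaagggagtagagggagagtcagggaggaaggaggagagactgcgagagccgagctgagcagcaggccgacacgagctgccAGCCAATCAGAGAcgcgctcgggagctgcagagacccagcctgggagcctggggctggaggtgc
The 15 bases shared by Cdh6 and Cdh9 begin 18 bases before the start of Cdh6 and 209 bases before that of Cdh9. Of 32851 RefSeq promoter windows searched on both strands, these were the only 2 to hold them (0.00609%). The 13 bases shared by Cdh9 and Cdh18 begin 76 and 64 bases before the start and occurred in 31 windows (0.0944%). They contain CCAAT, the letters of the CCAAT box, which 37.4% of all windows held on either strand. A match of letters is a description and shows no bound factor, and no such stretch lay under a peak.

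The cadherin control peaks had the median reads of the control list and a higher median −log10 p. Their widths ran between 284 and 637 bp with a median of 329, their folds between 2.61 and 4.53 with a median of 3.57, and their reads between 7 and 15 with a median of 10. In the whole control list the medians were 357 bp, 3.43 and 10 reads. Their median −log10 p was 4.14, against 3.42 in the whole control list and 3.63 on chromosome 15. The lowest background of the list applied to 13 of the 23 peaks (56.5%), against 48.0% in the whole list, and 4 peaks had a background at least 1.5 times the lowest. With a −log10 p of at least 5 there were 0 irradiated and 5 control peaks, 2 at Cdh6 and 1 each at Cdh10, Cdh12 and Cdh18. The 5 were 21.7% of the cadherin control peaks, against 11.1% of the control list and 13.4% of its peaks on chromosome 15. Over all protein-coding genes, 13.4% had an irradiated and 3.4% a control peak of this strength within 50 kb. Of the 23, 7 (30.4%) had a q of 1, against 35.0% of the control list and 0% of the irradiated list.

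**Figure D3:**
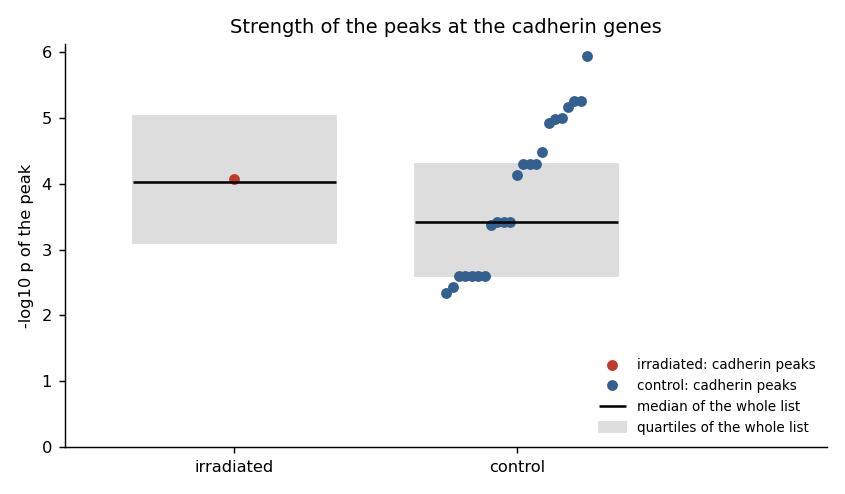
The −log10 p (vertical axis) of each cadherin peak in the irradiated list (red, 1 peak) and the control list (blue, 23 peaks), beside the median (line) and quartiles (grey) of its whole list. The irradiated peak is close to the median of its list, and the control peaks spread from 2.34 to 5.95, below and above the quartiles of theirs.

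Of the 23 control peaks 0 overlapped an irradiated peak, with an exact 95% interval of 0 to 14.8%. A fixed floor of 3 counts, a rougher measure than the exact interval, would be 13.0%. On chromosome 15, 29.5% (27.6 to 31.4) of 2302 control peaks did, and in the whole list 21.4% (20.6 to 22.2) of 9866. The nearest irradiated peak was a median of 273 kb away from a cadherin control peak (quartiles 36.1 and 752 kb), whereas the median was 2.36 kb on chromosome 15 and 5.22 kb in the whole list. It was over 500 kb away for 9 of the 23 (39.1%), against 3.87% on chromosome 15 and 5.57% in the whole list. The cadherin windows held only 1 irradiated peak, so hardly any overlap was possible. The overlap and the distances largely follow from that count and are no separate result.

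The cadherin genes lie in a stretch of chromosome 15 where irradiated peaks were nearly absent between dense groups on both sides. The stretch was delimited after the values were seen. The last irradiated peak before Cdh6 was at 12960008 to 12960569, 68.1 kb from the gene, and the first after Cdh18 at 23897321 to 23897700, 420 kb from the gene. Between them, over 10.9 Mb, there were 2 irradiated and 97 control peaks, an irradiated share of 2.02% (0.246 to 7.11). The irradiated peak outside the cadherin windows, at 21883724 to 21884150 between Cdh12 and Cdh18, was 4.49-fold over background with 12 reads and a q of 0.0536. In the 3 Mb before the stretch, up to and including the last irradiated peak, there were 250 irradiated and 183 control peaks, and in the 3 Mb after it 179 and 169.

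Control peaks were also thinner in the stretch than beside it, with 8.87 per Mb against 61.0 in the 3 Mb before and 56.3 in the 3 Mb after, but they ran through all of it at a median spacing of 71.1 kb. In the stretch the irradiated list had 1 peak in the cadherin gene spans, 0 in their 50 kb flanks and 1 outside the windows. The spans held 5.88 control peaks per Mb (3.29 to 9.70), the flanks 16 (6.91 to 31.5) and the ground outside the windows 9.38 (7.37 to 11.8). The intervals of the spans and of the ground outside the windows overlapped. Between 13 and 23 Mb, all 10 bins of 1 Mb had at least 3 control peaks, and 8 of them had no irradiated peak. Among bins with at least 3 control peaks this was so for 11 of 94 on chromosome 15 (11.7%) and 47 of 882 over all placed chromosomes (5.33%). The lists hold no value where no peak was called, so neither the reads nor the copy number of the stretch in each library is known from them.

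**Figure D4:**
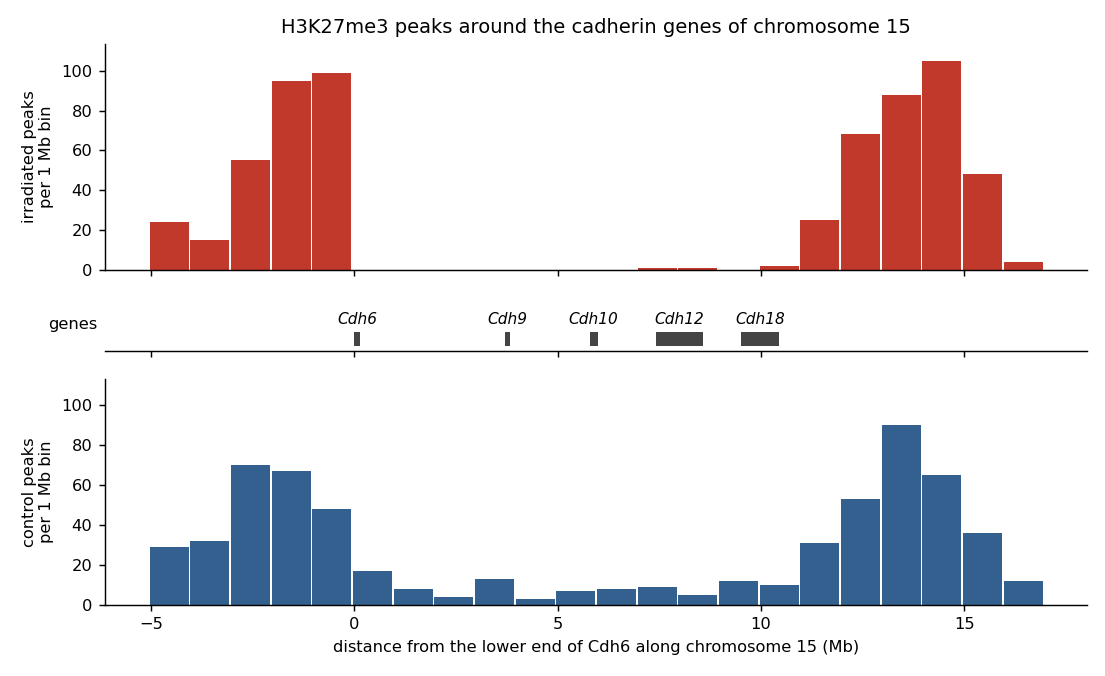
Peaks per 1 Mb bin (vertical axes) against the distance from the lower end of Cdh6 along chromosome 15 in Mb, for the irradiated list (top, red) and the control list (bottom, blue), with the gene spans between them. The bins between 13 and 24 Mb of the chromosome hold 0 to 2 irradiated and 3 to 17 control peaks, the bin before them 99 and 48, and the bin after them 25 and 31.

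The interval without an irradiated peak from 12960569 to 20799977, which holds Cdh6, Cdh9, Cdh10 and the first part of Cdh12, was 7.84 Mb long and contained 71 control peaks. Of 2836 such intervals of at least 100 kb between neighbouring irradiated peaks it held the most control peaks, although it was the 36th in length. The second held 42 control peaks, in 35.6 Mb of chromosome 16. The interval with Cdh18, from 21884150 to 23897321, held 21 control peaks in 2.01 Mb and was the fourth. These ranks were taken after the values were seen.

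The protein-coding neighbours before Cdh6 had peaks in both lists or in the irradiated list alone. Pdzd2, a PDZ domain gene, had 80 irradiated and 36 control peaks within 50 kb. Drosha, which encodes the nuclease that crops primary microRNAs and is the next gene before Cdh6, had 14 and 7, and 6030458C11Rik had 22 and 7. Zfr, which encodes a zinc finger RNA-binding protein, had 5 and 3, and the phosphoinositide-linked genes Mtmr12 and Golph3 had 1 and 0 each. Among the cadherin genes, Hnrnpa1l2-ps2 in the span of Cdh18 had 0 and 1, the same control peak that was counted for Cdh18.

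On other chromosomes classical cadherin genes had 0 to 4 irradiated and 0 to 2 control peaks each. Of 8 other type II genes, 2 (25.0%) had irradiated peaks and 0 a control peak, against 30.8% and 23.5% of all protein-coding genes: Cdh22 had 3 irradiated peaks, and Cdh5, the VE-cadherin gene of endothelium, had 1. Of 5 other type I genes, 3 (60%) had irradiated and 2 (40%) control peaks. Cdh4, the R-cadherin gene, had 4 irradiated and 0 control peaks, Cdh3, the P-cadherin gene, had 2 and 0, Cdh1, the E-cadherin gene, had 2 and 2, and Cdh2, the N-cadherin gene, had 0 and 1. Cdh1 and Cdh3 are neighbours whose windows share a peak. With each peak counted once, 11 irradiated and 3 control peaks lay at these 13 genes, an irradiated share of 78.6% (49.2 to 95.3), against 4.17% (0.105 to 21.1) at the chromosome 15 genes. Outside the cadherin windows, the stretch described above held 1 irradiated and 74 control peaks.

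**Figure D5:**
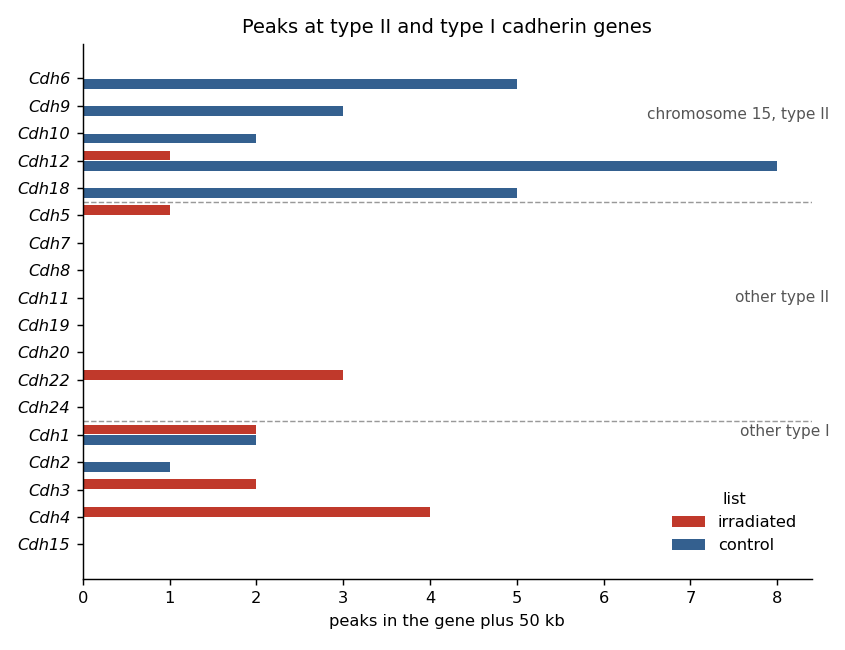
Peaks in the gene plus 50 kb (horizontal axis) for the chromosome 15 cadherin genes, the other type II genes and the other type I genes, with the irradiated list in red above the control list in blue. Irradiated peaks are on Cdh12, Cdh5, Cdh22, Cdh1, Cdh3 and Cdh4, and control peaks on the 5 genes of chromosome 15, Cdh1 and Cdh2.

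In the wider cadherin superfamily, 10 of 28 genes (35.7%) had irradiated peaks and 7 (25.0%) control peaks, near the 30.8% and 23.5% of all protein-coding genes. Fat2, a giant cadherin of cerebellar granule cells, had 23 irradiated and 5 control peaks, Cdh17, the liver-intestine cadherin gene, had 7 and 3, Cdh13, which encodes a cadherin anchored by a lipid, had 6 and 2, and Clstn2, which encodes a calsyntenin of synapses, had 3 and 2. The 2 genes of this list with control peaks and no irradiated ones, picked out after their values were seen, were Fat3, with 2, and Dchs2, with 3. Of 16 catenins and other partners of the adherens junction, 5 (31.2%) had irradiated and 4 (25.0%) had control peaks, again near the shares of all genes. Ctnnd2, the neuronal delta-catenin gene that binds the tail of classical cadherins and also lies on chromosome 15 (30172534 to 31029344), had 33 irradiated and 30 control peaks. Afdn, the afadin gene, had 1 and 2, Jup, the plakoglobin gene, 1 and 1, and Ctnna1, an alpha-catenin gene, 1 and 0.

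Outside the cadherin windows, the genes with the most similar densities in both lists were on other chromosomes. Likeness was the distance between the square roots of the peaks per Mb over the 2 libraries, among genes with a window of similar length. The members, genes whose window overlaps a member window and genes with Gm or Rik names were left out. No protein-coding gene of the stretch could thus be returned, and the places of the matches are no result about it. For Cdh6 these were Acpp on chromosome 9 and Slc17a8 on chromosome 10, with 0 irradiated and 3 control peaks each, at distances of 0.0129 and 0.0212. For Cdh18 they were Kcnd2 on chromosome 6, with 0 and 3, and Tln2 on chromosome 9, with 0 and 2, at 0.00483 and 0.238. For Cdh12 they were Nkain3 on chromosome 4, with 1 and 4, and Syne1 on chromosome 10, with 1 and 5, at 0.351 and 0.463. Cdh9 and Cdh10 held under 5 peaks and were not matched.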

How the data were processed

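H3K27me3 ChIP-seq of GL261 cells, with 1 irradiated and 1 control library, was analysed from the deposited peak lists, 1 list per library and none pooled. Fixation lasted 20 min in formaldehyde (1%), fragments measured 300 to 500 bp, and reads were pairs of 150 bp, per the labels' protocols. Per the submitters' processing notes, BWA, deepTools and mm10 were used; their versions, the peak caller and any use of the inputs were not given in the sources used.

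The authors deposited start, end and summit of each peak (other values, positions in bp), the fold enrichment at the summit (a ratio), an unadjusted and an adjusted −log10 p, and a score, 10 times the −log10 p without its decimals. The largest deposited p-value was 0.00499 in the irradiated and 0.00495 in the control list. These values are the authors' own and were used only within a list. Lines with further summits of an interval, 679 irradiated and 215 control, were merged. Reads at a summit were recovered as the whole number that gives both fold and p under a Poisson model (tolerance 0.001), for 100% of peaks in both lists, with more than 1 solution for 0.292% of irradiated peaks. On 2393 and 2664 simulated peaks the right number was returned for 99.9% in the irradiated and 100% in the control setting. The simulated peaks were drawn from the same Poisson model, so they check the calculation and not the model. Totals of the libraries are unknown, and reads at the summits of called peaks do not give the depth of a library. The lowest background came to 1.27 reads in the irradiated and 1.48 in the control list.

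Gene spans and promoters came from RefSeq GRCm38.p6; the 5 genes matched both tables, and exons were not resolved. A peak belonged to a gene if it overlapped the span plus 50 kb by at least 1 bp. Counts have exact Poisson and shares exact Clopper-Pearson 95% intervals, which cover counting error only. The genes, lists and rules were chosen with earlier results of these data known. Genes named were the 5 members, their neighbours between 12 and 24 Mb, up to 4 genes with the most peaks of each list, and the 2 most alike genes for members with at least 5 peaks. Alternatives were other peak thresholds, equal numbers of peaks, other windows, merging and other definitions of overlap. Python 3.11.15, numpy 2.4.6, scipy 1.17.1 and pandas 2.3.3 were used.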

Additional observations from a re-analysis of the deposited data

How the results depend on the processing

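Summed over the cadherin genes, control peaks outnumbered irradiated peaks under every alternative run, but not every single gene kept this order. The choice of the genes used these counts, so the order of the totals is no separate result. Stricter thresholds and narrower windows could only keep or lower the irradiated count. Equal numbers of peaks shortened the irradiated list alone and could not change the control count. With a q of at most 0.05, 0 irradiated and 1 control peak were left, an irradiated share of 0%, and 1 gene had more control than irradiated peaks. With a −log10 p of at least 5 there were 0 irradiated and 5 control peaks, an irradiated share of 0%, and 4 genes had more control than irradiated peaks. In gene spans alone the control count was 15. With 100 kb on either side there were 4 irradiated and 31 control peaks, an irradiated share of 11.4%. Cdh18 then had 10 control peaks instead of 5. Equal numbers of peaks, 2 kb windows, merging and counting each line left the totals within 1.5 times of those reported. In gene spans alone and with 2 kb windows, Cdh6 had 1 control peak instead of 5 and Cdh10 had 1 instead of 2. The overlap of 0 control peaks was the same under all 4 other definitions run. A reciprocal overlap of 50% and a −log10 p of at least 5 were stricter than the 1 bp rule and could not raise it. With edges allowed within 5000 bp it stayed at 0 narrowly, as the closest pair was 5.03 kb apart. Of 90 values per gene, 72 were equal or moved by at most 1.5 times, and many of these were irradiated counts of 0 that stayed at 0. The other 18 moved by more than 1.5 times or to or from 0. No paired analysis was possible because each group had 1 library, and no replicate could be left out. Few reads per peak limit all of these counts.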
